A study of Mus musculus with 4 samples.

Results

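The shared induction response was taken over all 4 libraries of the series, 2 grown in osteogenic induction medium and 2 in control medium, with the genotype labels together. For each gene the difference between induced and control medium was computed within each genotype label on the log2(FPKM + 1) scale, and a gene counted as shared when both differences were at least 1, a 2-fold change on that scale, in the same direction. Of 23027 entries left after the join of the tables, 12090 reached 1 FPKM in at least 1 library and were tested, and 73 of these were shared, 40 higher and 33 lower in induction medium. The cells were primary mesenchymal stem cells (MSCs) from mouse bone marrow, kept for 4 days with or without osteogenic induction. The 4 groups were wild type (WT) in control medium, Kdm4b knockout (KO) in control medium, WT induced and KO induced, with 1 library each. The composition of the induction medium, the age, strain and number of mice, and the design of the knockout allele were not given in the labels.

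Osteogenic induction media drive marrow stromal cells toward bone-forming osteoblasts and commonly hold a glucocorticoid, ascorbate and a phosphate source. Glucocorticoids bind a nuclear receptor that raises the transcription of targets such as Fkbp5, Tsc22d3 and Per1 in many cell types, and lowers many inflammatory genes in macrophages. Ascorbate is a cofactor of the hydroxylases that process collagen. Kdm4b encodes a demethylase of histone H3 lysine 9.

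FPKM divide a gene's sequenced fragments by its length and by the library's mapped fragments, so levels of different genes can be set side by side, but the depth behind them is unknown. The control libraries stood in one deposited table and the induced libraries in another, so medium and table cannot be told apart. Kdm4b itself was at 4.60 FPKM in the WT control library, 4.30 in KO control, 5.83 in WT induced and 4.26 in KO induced, so both KO values lay below both WT values by a narrow margin. A value over the whole gene cannot check a deletion of part of it, and the genotypes are therefore given as labels. Xist, the RNA of the inactive X chromosome, was at 24, 30.5 and 21.6 FPKM in WT control, KO control and KO induced, and at 0.0621 in WT induced. The Y-linked gene Ddx3y was at 28.7 FPKM in WT induced and at most 0.0208 in the other libraries. The WT induced library thus stood apart from the rest in sex-linked genes, and every WT difference rests on it. In the WT label, medium cannot be told apart from the sex or the source animal of the cells. The KO difference does not use that library.

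The labelled cell type was checked against its markers. Most stromal genes were present in every library, with Col1a1 at 235 to 836 FPKM, Pdgfrb at 22.9 to 76.3 and Cxcl12 at 89.6 to 163. Lepr stayed at or below 0.271, and Nt5e was at 7.18 in WT induced and at most 0.312 elsewhere. Macrophage genes were as abundant or more so, with Lyz2 at 6734 to 7937 FPKM and Cd68 at 490 to 1201. Over the 24 tested macrophage genes, FPKM summed to 20352 in WT control, 18378 in KO control, 15448 in WT induced and 20584 in KO induced. Cd3e, of T cells, was listed at 0 in all 4 libraries. Of the endothelial genes, Cdh5 was at 0.244 to 0.475 FPKM, Pecam1 at 0.265 to 1.31 and Vwf at 0.784 to 4.51. Pecam1 and Vwf were higher in the control libraries. Of the 4 tested endothelial genes, 3 were lower in both labels upon induction. The remaining 1 was lower in WT and at least 2-fold higher in KO on the log2(FPKM + 1) scale. In such bulk samples, fewer cells of a type and less RNA per cell cannot be told apart.

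Promoters are shown for 2 genes that were higher and 2 that were lower in both labels, as examples from the glucocorticoid and MHC class II lists described with their values further on. Each runs from 250 bases before to 50 bases after the start, 5′ to 3′ on the gene's strand, from RefSeq on build GRCm38.p6, whereas the authors' files used mm9. Capitals mark the E-box CACGTG in Fkbp5 and the cAMP response element TGACGTCA in H2-Aa. They also mark the Y box core CTGATTGG in Sult1a1, H2-Aa and H2-Eb1. In Sult1a1 they further mark AGAACA, an arm of the glucocorticoid receptor's palindrome, and its reverse complement TGTTCT. The windows are chr17:28486100-28486399 (minus strand) for Fkbp5, chr7:126676369-126676668 (minus) for Sult1a1, chr17:34287774-34288073 (minus) for H2-Aa and chr17:34305617-34305916 (plus) for H2-Eb1.
Fkbp5: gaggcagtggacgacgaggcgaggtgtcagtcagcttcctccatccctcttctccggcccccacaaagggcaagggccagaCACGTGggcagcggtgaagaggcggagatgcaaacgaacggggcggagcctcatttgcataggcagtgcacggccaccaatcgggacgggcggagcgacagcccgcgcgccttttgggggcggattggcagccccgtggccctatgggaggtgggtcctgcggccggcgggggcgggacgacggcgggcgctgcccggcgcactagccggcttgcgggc
Sult1a1: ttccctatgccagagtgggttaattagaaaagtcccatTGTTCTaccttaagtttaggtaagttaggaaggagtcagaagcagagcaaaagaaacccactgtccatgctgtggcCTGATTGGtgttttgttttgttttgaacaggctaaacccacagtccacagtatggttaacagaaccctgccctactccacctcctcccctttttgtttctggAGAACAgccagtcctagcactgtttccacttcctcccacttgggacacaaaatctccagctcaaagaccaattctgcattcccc
H2-Aa: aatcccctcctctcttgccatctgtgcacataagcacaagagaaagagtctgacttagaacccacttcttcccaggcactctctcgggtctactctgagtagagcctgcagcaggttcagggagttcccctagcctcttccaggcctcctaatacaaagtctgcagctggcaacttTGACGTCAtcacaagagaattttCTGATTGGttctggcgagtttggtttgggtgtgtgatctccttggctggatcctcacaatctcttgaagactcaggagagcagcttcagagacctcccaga
H2-Eb1: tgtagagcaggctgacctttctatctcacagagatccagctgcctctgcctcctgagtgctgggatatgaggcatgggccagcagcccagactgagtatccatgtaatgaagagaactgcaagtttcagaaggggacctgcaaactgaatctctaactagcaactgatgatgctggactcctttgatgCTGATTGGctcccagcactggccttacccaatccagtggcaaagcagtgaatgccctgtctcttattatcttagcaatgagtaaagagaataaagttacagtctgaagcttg

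Motifs were searched on both strands of these windows, for 29 of the higher and 20 of the lower shared genes that had one. The motif AGAACA stood in 6 of the 29 (1700071M16Rik, Ednrb, Ms4a6b, Pla2g7, Sult1a1 and Tsc22d3) and in 2 of the 20, Itgax and Mmp12, against 19% of all 32851 promoters and 14.5% of those of tested genes. No window of a shared gene held the full palindrome, AGAACA and TGTTCT 3 bases apart, which stood in 0.00913% of all promoters. The E-box stood in 4 of the 29 (Fkbp5, Per1, Slc1a6 and Sphk1) and in none of the 20, against 12.0% of tested genes' promoters. The Y box core stood in 3 of the 29 (Itgbl1, Per1 and Sult1a1) and in 2 of the 20, H2-Aa and H2-Eb1, against 6.46%. A match describes the letters of the window and is no evidence of binding.

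Known glucocorticoid-response genes were among those higher in both labels, and Fkbp5 had the second largest mean difference of the 40. Fkbp5, a co-chaperone of the glucocorticoid receptor, was at 4.10 FPKM in WT control, 3.94 in KO control, 118 in WT induced and 79.3 in KO induced. Both induced values were far above both control values, with ratios of FPKM of 28.8 in WT and 20.1 in KO. It was the only gene called by limma with medium as the sole term (adjusted p = 0.0481).

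Sult1a1, a sulfotransferase, was at 4.49 and 6.0 FPKM in the WT and KO control libraries and at 28.7 and 29.9 in the induced ones. Tsc22d3, the glucocorticoid-induced leucine zipper, was at 28.9 and 28.0 FPKM in control and at 160 and 126 in induced libraries. Per1, a repressor of the circadian clock, was at 3.90 and 5.47 FPKM in control and at 15 and 15.1 in induced libraries. In these 3 genes the values within each medium were close together, and the media did not overlap. Rgcc, a regulator of the cell cycle, was at 1.63 and 2.21 FPKM in control and at 7.83 and 7.41 in induced libraries.

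Of the 25 tested genes on the glucocorticoid list, 5 were shared and higher (Fkbp5, Sult1a1, Tsc22d3, Rgcc and Per1) and none lower, while 0.331% of all tested genes were shared and higher. This list and those below were composed with earlier results of these data known, so their counts are descriptions. The list's median difference was 1.35 in WT and 0.62 in KO, against -0.03 and -0.04 over all tested genes. At any size, 12 of the 25 were higher in both labels and 2 lower in both, against 14.5% and 21.0% of all tested genes. Another 7 were lower in WT and higher in KO, and 4 the reverse. Ddit4, an inhibitor of mTOR signalling, and Klf9, a transcription factor, missed the rule in KO, with differences of 2.02 and 1.77 in WT and of 0.96 and 0.93 in KO. Tgm2, a transglutaminase, went the other way, at 112 and 111 FPKM in control and 21.3 and 57.4 in induced libraries. The metallothionein gene Mt2 went in opposite directions, with differences of -1.23 in WT and 2.37 in KO.

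**Figure D1:**
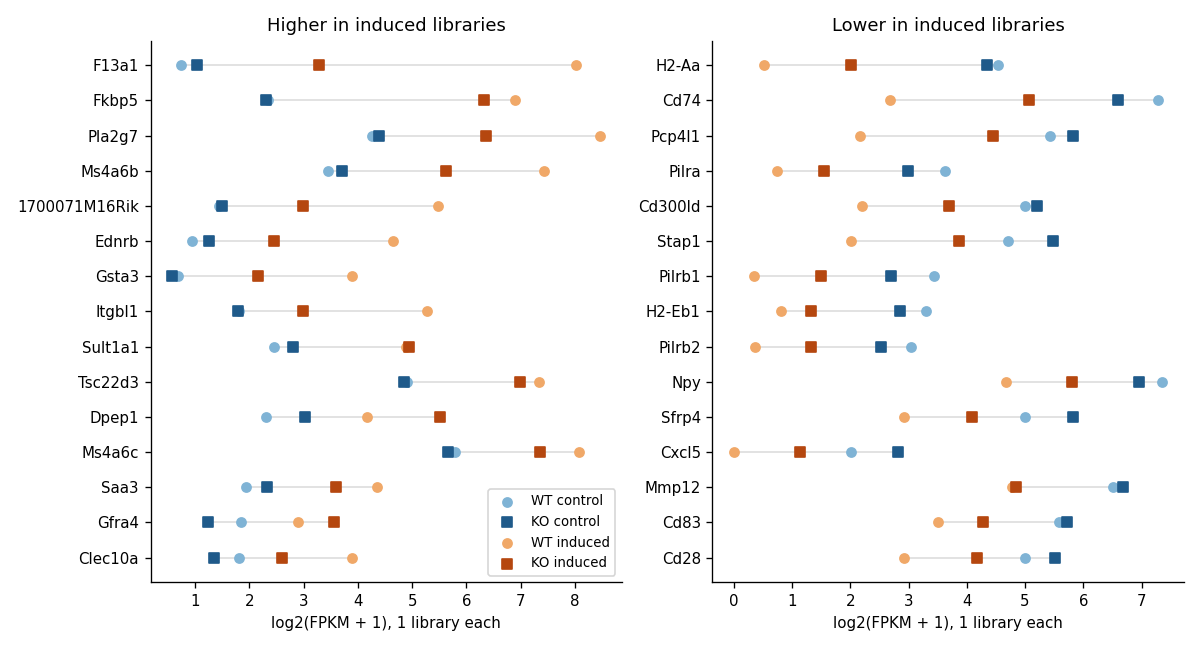
Levels of the 15 genes with the largest mean difference each way among the 73 shared genes, as log2(FPKM + 1) on the horizontal axis, 1 point per library. Fkbp5, Sult1a1 and Tsc22d3 show tight pairs within each medium, while F13a1 reaches 260 FPKM in WT induced and 8.76 in KO induced.

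Several higher genes are known from macrophages. Apart from the lists, genes are grouped by known role for description only, after their values were seen. F13a1, the A subunit of coagulation factor XIII, was at 0.658 and 1.05 FPKM in control, 260 in WT induced and 8.76 in KO induced. It had the largest mean difference of the 73, 4.77, but its 2 differences were 7.30 and 2.25. Pla2g7, which inactivates platelet-activating factor, was at 18.1 and 19.9 FPKM in control, 355 in WT induced and 81.8 in KO induced. Both induced values of each gene exceeded both control values, and the WT induced value was the highest.

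Stab1, a scavenger receptor, was at 85.9 and 106 FPKM in control and at 241 and 219 in induced libraries, with little spread between the labels. Marco, another scavenger receptor, was at 0.259 and 0.417 FPKM in control and at 2.47 and 1.99 in induced libraries. Slc11a1, a metal transporter of phagosomes, was at 31.0 and 41.5 FPKM in control and at 129 and 85.0 in induced libraries. The groups did not overlap for any of the 3. Clec10a, a C-type lectin, was at 2.50 and 1.53 FPKM in control and 13.9 and 5.08 in induced libraries. Ms4a6b and Ms4a6c, of a family of similar membrane proteins whose reads may be shared, were at 9.86 and 12.1 and at 54.1 and 49.8 FPKM in control, and at 173 and 48.2 and at 269 and 164 in induced libraries.

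These genes did not stand for macrophage genes as a whole. Of the 24 tested on the macrophage list, 3 were shared and higher (F13a1, Marco and Stab1), against 0.331% of all tested genes. On that list 8 did not overlap and were higher and 7 did not overlap and were lower, against 10.5% and 16.9% of all tested genes. Cd14, a receptor for bacterial lipopolysaccharide, was at 341 and 345 FPKM in control, 37.8 in WT induced and 212 in KO induced. Cd163, the haemoglobin scavenger receptor, was at 0.633 and 0.859 FPKM in control and at 3.01 and 2.41 in induced libraries, and missed the rule in KO with a difference of 0.88. The part of a changed number or state of macrophages in these values was not tested.

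Some higher genes encode enzymes of glutathione and of detoxification. Gsr, glutathione reductase, was at 27.8 and 27.1 FPKM in control and at 61.5 and 61.0 in induced libraries, among the most even pairs of the set. Gsta3, a glutathione S-transferase, was at 0.597 and 0.486 FPKM in control and at 13.8 and 3.45 in induced libraries. Dpep1, a dipeptidase that acts on leukotriene D4 and on cysteinyl-glycine, was at 3.97 and 7.16 FPKM in control and at 16.9 and 44.7 in induced libraries, with the larger difference in KO. Cbr2, a carbonyl reductase, was at 21.8 and 13.5 FPKM in control and at 55.3 and 29.1 in induced libraries. On the NRF2 and glutathione list, 2 of 18 tested genes were shared and higher, against 0.331% of all tested genes, and 13 were higher in both labels at any size, against 14.5% of all. The median difference was 0.31 in WT and 0.47 in KO. Gclm, which regulates glutathione synthesis, missed the rule with 1.91 in WT and 0.96 in KO.

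Secreted and matrix proteins were few. Saa3, an acute-phase protein, was at 2.81 and 4.00 FPKM in control and at 19.4 and 11.1 in induced libraries. Mgp, matrix Gla protein, an inhibitor of mineralisation, was the most abundant shared gene, at 834 and 1275 FPKM in control and 1679 and 2654 in induced libraries. It lay just inside the rule, with differences of 1.01 and 1.06, and Fpr2, a formyl peptide receptor, lay just outside with 1.87 and 0.99. S100a8, a calcium-binding protein of neutrophils, was at 2.11 and 0.721 FPKM in control and 5.78 and 4.45 in induced libraries. Ang, angiogenin, which shares exons with Rnase4, was at 9.54 and 6.98 FPKM in control and 25.8 and 19.8 in induced libraries.

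Some other higher genes encode receptors and signalling proteins. Ednrb, the endothelin B receptor, was at 0.925 and 1.39 FPKM in control, 24.1 in WT induced and 4.44 in KO induced. Gfra4, a co-receptor for a ligand of the GDNF family, was at 2.60 and 1.34 FPKM in control and at 6.47 and 10.9 in induced libraries. Sphk1, which makes sphingosine 1-phosphate, was at 7.36 and 4.28 FPKM in control and at 19.4 and 12.9 in induced libraries. Its product's receptor S1pr1 was on the other side, at 31.6 and 58.4 FPKM in control and 14.9 and 28.6 in induced libraries, just inside the rule with differences of -1.04 and -1.01.

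The other higher genes included Itgbl1, Cdc42ep5, Sla, Prss16, Tns1, Arxes2, Eya2, Ndrg2, Arhgdig, Slc1a6, Rac3 and Fam46b, with the entries 1700071M16Rik, Gm10012 and Emc8-1190005i06rik. Arxes2 has a close copy and Emc8-1190005i06rik is a readthrough entry, so their values are uncertain.

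MHC class II genes were among those lower in both labels, and H2-Aa and Cd74 had the largest mean differences of the 33. These genes encode the molecules that present peptides to helper T cells, and Cd74 is their chaperone. H2-Aa, the alpha chain of I-A, was at 22.1 FPKM in WT control, 19.4 in KO control, 0.430 in WT induced and 3.04 in KO induced. Cd74 was at 155 and 96.0 FPKM in control, 5.42 in WT induced and 32.5 in KO induced. The induced values of both genes lay far below both control values, with H2-Aa lower by ratios of 51.3 in WT and 6.40 in KO.

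H2-Eb1, the beta chain of I-E, was at 8.90 and 6.19 FPKM in control and 0.755 and 1.5 in induced libraries. H2-Ab1, the beta chain of I-A, was at 23.9 and 15.8 FPKM in control and at 10.7 and 6.90 in induced libraries, with a difference of -1.09 in each label. H2-Ab1, H2-Aa and H2-Eb1 lie next to each other on chromosome 17, with no other tested gene between them. Of the 10 tested genes of this list, these 4 were shared and lower and none higher, against 0.273% of all tested genes. H2-DMa and H2-DMb1, which load peptides onto class II, had differences of -0.11 and -0.26 in WT and of 0.30 and 0.08 in KO. Cd86, a costimulatory ligand on antigen-presenting cells, was at 11 and 10.9 FPKM in control and at 6.03 and 6.50 in induced libraries, short of the rule.

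**Figure D2:**
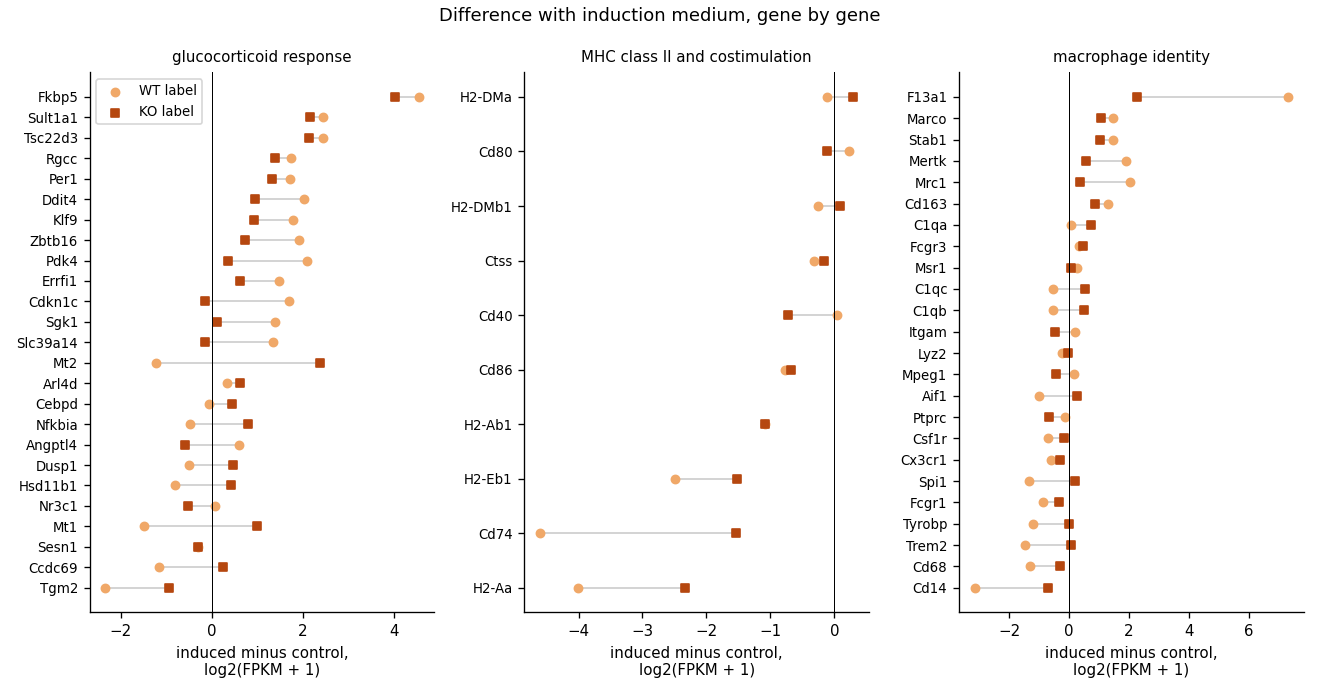
Difference between induced and control medium on the log2(FPKM + 1) scale for each tested gene of 3 lists, 1 point per genotype label, ordered by the mean of both. H2-Aa, Cd74, H2-Eb1 and H2-Ab1 are below -1 in both labels. On the macrophage list of 24 tested genes, 9 are higher in both labels and 8 lower in both, against 14.5% and 21.0% of all tested genes. Another 5 are lower in WT and higher in KO, and 2 the reverse.

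Some other lower genes encode surface proteins of immune cells, and they form no list of their own. Itgax, the integrin CD11c, was at 6.80 and 5.86 FPKM in control and at 0.874 and 1.96 in induced libraries. Cd83, a surface marker of mature dendritic cells, was at 46.7 and 51.9 FPKM in control and at 10.3 and 18.3 in induced libraries. Cd28, known as the costimulatory receptor of T cells, was at 30.9 and 44.9 FPKM in control and at 6.58 and 17.0 in induced libraries, although Cd3e was listed at 0 throughout. Cd300ld, a myeloid receptor, was at 31.1 and 35.9 FPKM in control and 3.59 and 11.9 in induced libraries. The control and induced values of each gene did not overlap.

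Pilra, an inhibitory immunoglobulin-like receptor, was at 11.4 and 6.94 FPKM in control and 0.676 and 1.91 in induced libraries. Its activating partners Pilrb1 and Pilrb2 lie beside it on chromosome 5, and reads may be shared among the 3. Pilrb1 was at 9.77 and 5.47 FPKM in control and at 0.267 and 1.84 in induced libraries. Stap1, an adaptor in receptor signalling, was at 25.1 and 43.6 FPKM in control and at 3.01 and 13.6 in induced libraries.

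Some lower genes encode secreted proteins. Il1b, interleukin 1 beta, was at 3.46 and 3.04 FPKM in control and at 0.154 and 0.515 in induced libraries. Cxcl5, a neutrophil chemokine, was at 3.03 and 6.07 FPKM in control, listed at 0 in WT induced and at 1.19 in KO induced. Mmp12, macrophage elastase, was at 90.7 and 102 FPKM in control and at 26.4 and 27.9 in induced libraries, the 2 labels being close in each medium. Npy, neuropeptide Y, was at 163 and 123 FPKM in control and at 24.5 and 54.8 in induced libraries. Of the 18 tested chemokines, Cxcl5 was the only shared one, and the list's median difference was -1.37 in WT and -0.17 in KO.

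A pair of Wnt antagonists was lower. Sfrp4, a secreted Frizzled-related protein, was at 31.1 and 55.7 FPKM in control and at 6.62 and 16.1 in induced libraries. Nkd2, an inhibitor of Dishevelled, was at 9.95 and 10.5 FPKM in control and at 4.42 and 4.35 in induced libraries. Nkd2 no longer passed once libraries were divided by median-ratio size factors. Sfrp4 and Nkd2 were the 2 shared genes among the 15 tested of the Wnt list, against 0.273% of all tested genes shared and lower. On that list 6 genes did not overlap and were lower and none higher, against 16.9% and 10.5% of all. Sfrp1 and Wif1, further antagonists, had log2 differences of -3.16 and -2.22 in WT and of -0.65 and -0.69 in KO.

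The remaining lower genes were Pcp4l1, Pilrb2, Tnip3, Padi2, Fam46c, Car8, S100b, Gas1, Raet1d, Plxnc1, Mcoln3, Evi2a, Col10a1, Hist1h4f and Hist1h2af. Col10a1, the collagen of hypertrophic cartilage, was the one of the 33 whose groups overlapped, at 2.96 and 9.41 FPKM in control and 0.529 and 3.08 in induced libraries. Evi2a, Mcoln3, Padi2 and Raet1d, like Nkd2 and S1pr1, no longer passed with median-ratio size factors. Zc3h12d lay just outside the rule with -1.08 in WT and -0.997 in KO. The histone genes have near-identical copies and transcripts that are poorly polyadenylated, so their values are uncertain.

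Most large differences were not shared. In the WT label 831 genes were at least 2-fold higher (6.87%) and 879 lower (7.27%), and in the KO label 113 were higher (0.935%) and 89 lower (0.736%). Of the 831, 40 were also higher in KO, 778 were within 2-fold there and 13 were lower. Of the 879, 33 were also lower in KO, 835 were within 2-fold and 11 were higher. Among the 73, the WT difference was the larger in size for 27 of the 40 higher and 25 of the 33 lower genes, with medians of 1.73 and 1.31 for the higher and -1.95 and -1.42 for the lower genes in WT and KO.

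**Figure D3:**
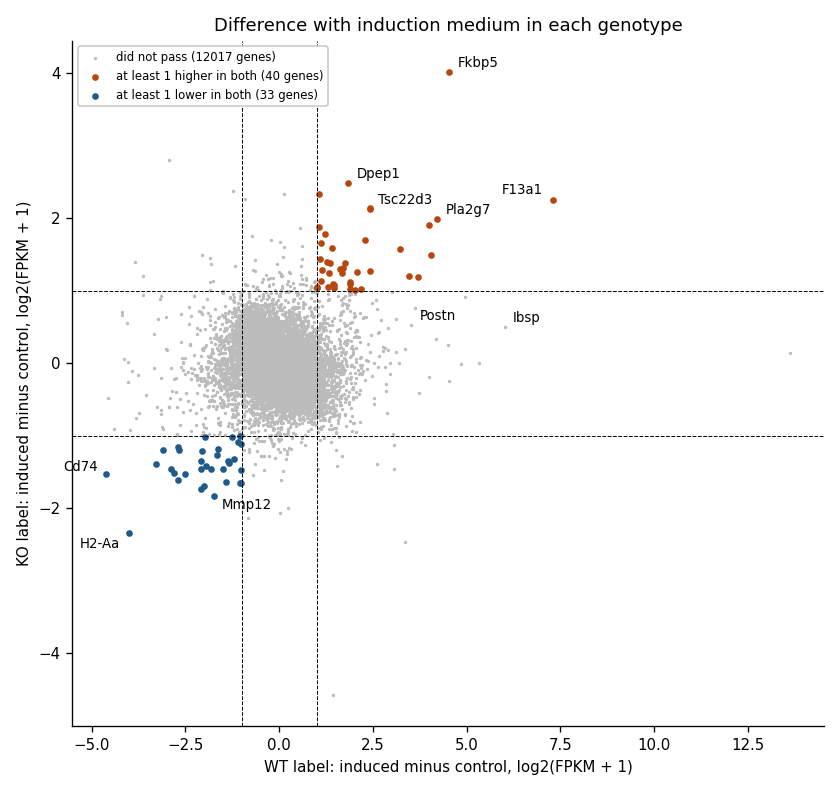
Difference between induced and control medium on the log2(FPKM + 1) scale in the WT label (horizontal) and the KO label (vertical), 1 point per tested gene, with dashed lines at 1 and -1. The 40 higher and 33 lower shared genes lie in the upper right and lower left corners, outside a cloud that is wider along the WT axis; the point farthest right is Rn45s, a ribosomal RNA entry.

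Over all 12090 genes the differences did not run together. Their signs were the same in 4288 genes (35.5%), the standard deviation was 0.77 in WT and 0.39 in KO, and across genes Pearson's r was -0.13 and Spearman's rho -0.29, given as a description since genes are not independent replicates. The 2 differences share no library. They ran in opposite directions with transcript length, the longest GENCODE transcript of each gene, with a Spearman's rho of 0.44 in WT and -0.41 in KO over 12002 genes. With the genes split by length into 10 bins, the median difference was -0.55 in WT and 0.29 in KO in the shortest bin, and 0.50 and -0.21 in the longest. All 30 ribosomal protein genes, which are short, were lower in WT and higher in KO upon induction.

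The mean of the 2 differences ran less with length, with a rho of 0.23. When the length trend was taken out of each difference, 40 genes were shared and higher and 32 lower, of which 32 and 23 were among the 40 and 33. The signs were then the same in 41.7% of genes. Mgp, Marco, Cbr2, Arhgdig, Arxes2, Cdc42ep5 and Rac3 were among the higher genes that no longer passed. Among the lower genes H2-Ab1, Nkd2, S1pr1, S100b, Gas1, Mcoln3, Padi2, Raet1d and the 2 histone genes no longer passed. This setting was chosen after seeing the data. Whether the trend came from RNA quality or library making was not tested.

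**Figure D4:**
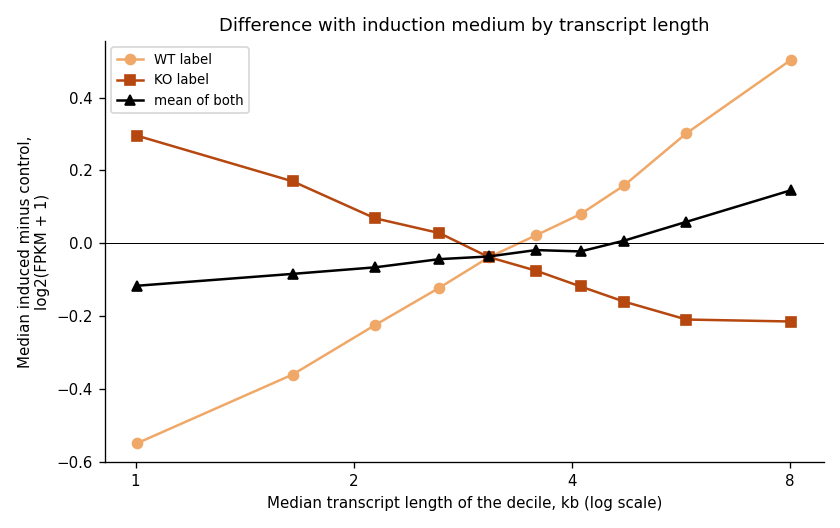
Median difference between induced and control medium on the log2(FPKM + 1) scale in 10 bins of genes by transcript length, against the median length of the bin in kilobases (log scale). The WT line goes up from -0.55 to 0.50 and the KO line goes down from 0.29 to -0.21, while the mean of both stays between -0.12 and 0.15.

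The shared set also depends on the pseudocount, which damps differences of low genes. With 5 in place of 1, 12 of the higher genes passed: Fkbp5, Sult1a1, Tsc22d3, Gsr, Dpep1, Stab1, F13a1, Pla2g7, Ms4a6b, Ms4a6c, Mgp and Ang. The 10 lower genes that passed were H2-Aa, Cd74, Mmp12, Npy, Sfrp4, Cd83, Cd28, Cd300ld, Stap1 and Pcp4l1. H2-Eb1, H2-Ab1, Itgax, Il1b, Per1 and Rgcc were among those that did not pass.

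By the non-overlap rule, which asks only that both induced values lie on one side of both control values, 1268 genes were higher (10.5%) and 2047 lower (16.9%). Dividing each library by a median-ratio size factor turned this into 1602 and 1685, so the balance of directions rests on the scaling. Most of these differences were small, with 780 of the higher and 1327 of the lower genes under 0.5 in mean difference. An exact permutation test of 2 libraries against 2 cannot give a two-sided p below 0.333.

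A limma fit with genotype label and medium called 45 genes higher (0.372%) and 58 lower (0.480%) at an adjusted p under 0.05, and 20 and 19 of these were shared. Its residual has 1 degree of freedom and its prior degrees of freedom were infinite, so all genes of like level took 1 variance and a gene's own disagreement between the labels did not count. Of the 45, 25 were past 2-fold in WT alone, among them Ibsp, and 6 had opposite signs in the 2 labels. Of the 58, 38 were past 2-fold in WT alone and 1 in KO alone, and 6 had opposite signs. With medium as the only term, limma called Fkbp5 alone. The unadjusted limma p was under 0.05 in 450 of the 12090 tested genes, a share below 0.05.

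Bone genes differed between the labels, and of the 3 given here only Ibsp was past 2-fold in WT alone on the log2(FPKM + 1) scale. Ibsp, bone sialoprotein, was at 1.74 and 1.11 FPKM in control, 177 in WT induced and 1.98 in KO induced. Runx2, the osteoblast transcription factor, was at 3.21 and 3.18 FPKM in control, 7.10 in WT induced and 3.11 in KO induced. Sp7, the factor downstream of it, was at 2.11 and 3.40 FPKM in control, 8.46 in WT induced and 1.18 in KO induced. On that scale Runx2 fell short of the rule in WT with a difference of 0.94, and Sp7 was past it in opposite directions, with 1.60 in WT and -1.02 in KO. In each, KO induced lay within 1 FPKM of a control library or below both. Of the 23 tested genes on the osteoblast list Mgp alone was shared, and the median difference was 1.03 in WT and -0.06 in KO.

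Collagen and matrix genes were mostly higher in both labels, but none reached 2-fold in KO on the log2(FPKM + 1) scale. Of the 23 tested, 16 did not overlap and were higher, against 10.5% of all tested genes, and the median difference was 1.52 in WT and 0.12 in KO. Postn, periostin, was at 75.8 and 131 FPKM in control, 883 in WT induced and 190 in KO induced. Of the 18 tested collagen-processing genes, none was shared and 11 did not overlap and were higher, against the same 10.5%, with medians of 0.60 and 0.39. Lox, which crosslinks collagen, was at 93.5 and 152 FPKM in control, 582 in WT induced and 204 in KO induced.

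Most proliferation and interferon genes were lower in both labels, with larger differences in WT. Of 32 tested cell cycle genes none was shared and 22 did not overlap and were lower (19 with median-ratio size factors), against 16.9% of all tested genes, with medians of -1.35 in WT and -0.17 in KO. Cenpa, the centromeric histone, was at 34.6 and 28.0 FPKM in control, 6.32 in WT induced and 18.7 in KO induced. Of 21 tested interferon-response genes none was shared and 13 did not overlap and were lower, against the same 16.9%, with medians of -1.04 and -0.21. Ifit3, an antiviral effector, was at 5.89 and 2.79 FPKM in control, 0.338 in WT induced and 1.44 in KO induced.

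**Figure D5:**
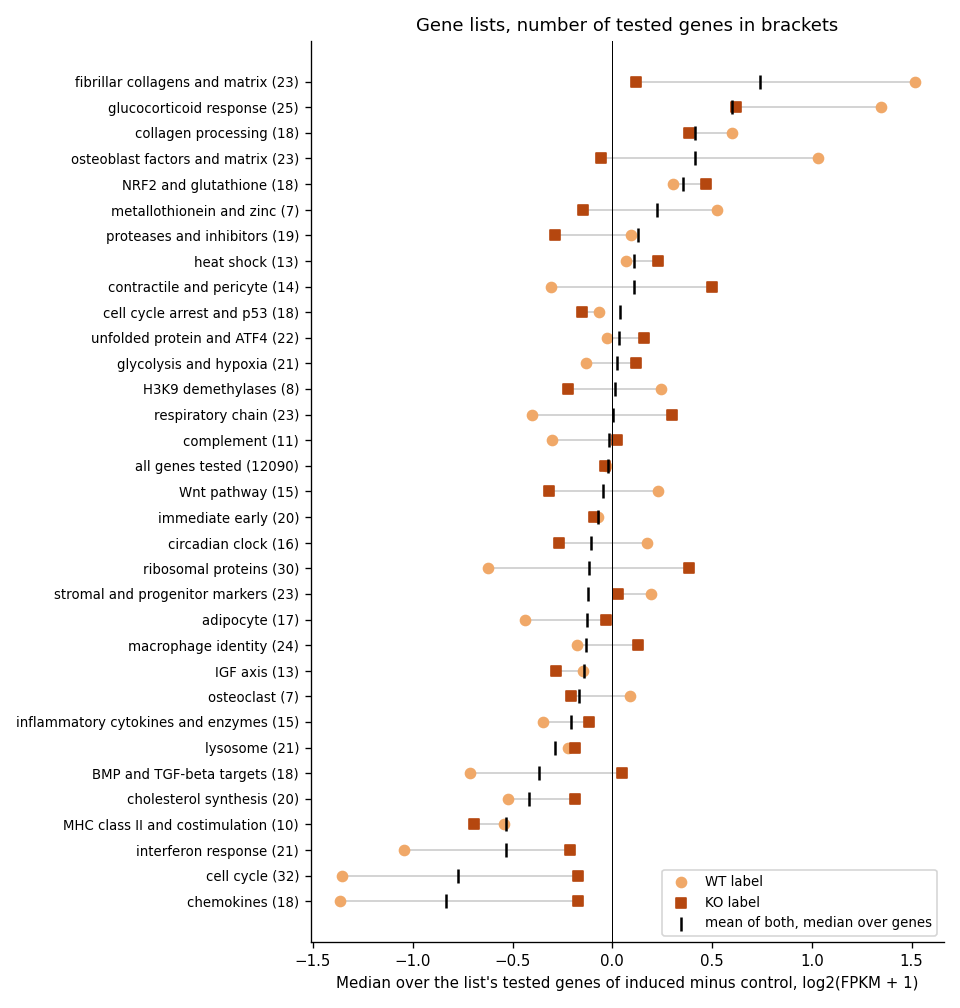
Median difference between induced and control medium on the log2(FPKM + 1) scale over the tested genes of each list with at least 7 of them, for the WT label (circles), the KO label (squares) and the mean of both (bars). The glucocorticoid list lies at 1.35 in WT and 0.62 in KO, the MHC class II list at -0.54 and -0.69, and the collagen and cell cycle lists lie near 0 in KO.

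Other lists had at most 1 shared gene each way. Per1 was the only shared gene of 16 tested on the clock list, with Arntl, its activator, at 4.70 and 5.98 FPKM in control and 11.8 and 9.66 in induced libraries. Among 15 inflammatory genes Saa3 was higher and Il1b lower, among 19 proteases and inhibitors Mmp12 was lower, among 4 cartilage genes Col10a1 was lower, and S100a8 was the 1 tested gene of the other blood lineages. Adipocyte genes had no shared member among 17 tested, nor had lysosomal genes among 21, of which 11 did not overlap and were lower, against 16.9% of all tested genes. Heat shock genes had none among 13, of which 6 did not overlap and were higher, against 10.5% of all.

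No gene was shared among the 7 tested of metallothioneins and zinc transport, 18 of BMP and TGF-beta targets, 13 of the IGF axis, 23 stromal markers, 14 contractile genes, 7 osteoclast genes, 11 complement genes and 18 of cell cycle arrest. The same held for 20 immediate early genes, 20 of cholesterol synthesis, 22 of the unfolded protein response, 21 of glycolysis, 23 of the respiratory chain, 30 ribosomal proteins, 4 endothelial, 3 muscle, 5 sex-linked and 8 H3K9 demethylase genes.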

How the data were processed

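The authors deposited FPKM per gene in 2 tables, per the file headers, and used TopHat and Cufflinks with mouse build mm9, per the submitters' processing notes. The versions, annotation, strand setting and any scaling between tables are not given in the sources used here. Polyadenylated RNA was made into libraries with a stranded kit, per the labels. Each table held 24346 entries; 27 with date-like names and 1292 of small RNA (9.03% to 12.7% of summed FPKM) were dropped, and the tables were joined by symbol. Genes with at least 1 FPKM in a library were kept, and log2(FPKM + 1) was used.

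With 1 library a group, genes were described by size and overlap. limma 3.58.1 (R 4.3.3) was fitted across all genes with Benjamini-Hochberg adjustment, and was tested on simulated data. Nothing in the labels says whether libraries of the 2 media came from separate animals or cultures. In Xist and Ddx3y the 2 WT libraries differed as cells of female and male animals do. With genotype label in the fit, limma's p-values set the medium difference against the disagreement of the labels, pooled over genes of like level. With medium only, they set it against the spread between the libraries of a medium. Neither fit measures the spread of replicate cultures.

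Genes were named by size rank within the shared set, by list and by marker role, and most other shared genes were then named too. Some items are not reported here. The members, lists and rules were chosen with earlier results of these data known. Alternatives covered the pseudocount, the filter, scaling, small RNA entries, each library left out, and the model terms. Chromosomes and promoters came from RefSeq on GRCm38.p6, matched by symbol for 67 of the 73 shared genes; no coordinates were converted.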

Additional observations from a re-analysis of the deposited data

Results flagged for a closer look

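In 24 genes both differences were at least 1 in size and opposite in sign, 13 higher in WT and lower in KO and 11 the reverse. The 13 of these 24 that were named by rank or as a marker are given here. With 1 library a group, the disagreement was not tested. The values that follow are the WT difference minus the KO difference on the log2(FPKM + 1) scale.

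Higher in WT and lower in KO were Nrep (4.52), Mmp13 (3.99), a collagenase, Gja1 (2.95), the gap junction protein connexin 43, Mob1a (2.47), Slc36a4 (2.16) and Sp7 (2.62), an osteoblast transcription factor. Mmp13 was at 16.7 and 28.9 FPKM in the WT and KO control libraries and at 107 and 10.5 in the induced ones. Atp6v0c (5.83), a subunit of the vacuolar proton pump with near-identical copies, was at 64.9 and 555 FPKM in control and at 678 and 99.99 in induced libraries, so its control libraries already differed.

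Lower in WT and higher in KO were Plac8 (-5.24), Aldh1a1 (-4.83), which makes retinoic acid, the metallothionein gene Mt2 (-3.61), Cryab (-3.54), a small heat shock protein, Rps27rt (-3.28) and Snhg20 (-3.18). Plac8 was at 108 and 99.0 FPKM in control, 6.61 in WT induced and 263 in KO induced. Rps27rt is a near-identical copy of a ribosomal protein gene, so its value is uncertain.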

How the results depend on the processing

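A pseudocount of 0.1 gave 80 higher and 89 lower shared genes and 23 and 35 limma calls, and a pseudocount of 5 gave 12 and 10 shared genes. At 5 FPKM or more, limma called 28 higher genes. Without a filter it called 0 and 0, with 783 of 17477 genes at an unadjusted p under 0.05. With small RNA entries kept it called 8 and 6. Requiring 2-fold in all 4 pairs of libraries left 26 and 18 shared genes. With medium as the only term, limma called 1 higher and 0 lower. The cause was not tested. Leaving out 1 library loosens the non-overlap rule by construction. The shared rule then set both libraries of the other medium against the 1 left, and some shared genes no longer passed. Shared counts then ran from 46 to 398 higher and 31 to 459 lower, non-overlapping counts from 2693 to 4798 and 3308 to 5034, and limma calls from 1 to 882 and 0 to 874. Both upper ends of the shared and limma counts came without the KO induced library, and the limma lower ends came without WT control, where 307 genes had an unadjusted p under 0.05. Without KO control, 66 and 71 genes were shared, including 29 of the 40 and 19 of the 33, and limma called 9 and 3. Without WT induced, 46 and 31 were shared, including 29 of the 40 and 19 of the 33. Median-ratio factors gave 44 and 27 shared genes, including all 40 higher and 27 of the 33 lower. Leaving out entries with near-identical copies, chosen after seeing the data, left 34 and 27. Of 301 alternative values for 43 named shared genes, 79 moved by more than the gene's own SD and 0 reversed. Where the media do not overlap, no pseudocount or left-out library can reverse a gene, so the 0 is no test of the direction. The limma fit with genotype label pairs the media within a label (45 and 58 calls), and the fit without that block is the one with medium only; no replicate numbers exist to pair by. Depth is unknown in FPKM, so low genes carry unknown counting error.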
